A study of Mus musculus with 4 samples.

Results

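The genes described here are the nuclear genes for subunits of respiratory complexes II and III and of the ATP synthase (complex V). They were chosen by name and position, as protein-coding rows outside the mitochondrial genome whose symbol is Sdha, Sdhb, Sdhc, Sdhd or Cyc1 or begins with Uqcr or Atp5. The same choice also took in cytochrome c (Cycs) and Cox6b1, Cox6c, Cox7b and Cox7c, which belong to complex IV. This gave 35 of the 16472 genes in the table, namely 4 of complex II, 9 of complex III, 17 of complex V, 4 of complex IV and 1 for cytochrome c. RNA of skeletal muscle of WT mice was sequenced in 2 libraries of isolated mitochondria and 2 libraries labelled as tissue minus mitochondria, which are called remaining tissue below. The titles of the latter group read total, and a legend of the study describes lysate of the whole muscle, so whether it was whole or depleted muscle is not settled. Age, sex and the number of animals were not given in the sources used here, so p-values measure the spread between these libraries, which may be technical. The fractionation, as described for hearts, combined trypsin, homogenisation and differential centrifugation with digitonin and RNase treatment of the mitochondrial pellet. RNA fragmentation time was set separately for mitochondrial samples, so fragmentation and fraction cannot be told apart.

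Complex II oxidises succinate in the tricarboxylic acid cycle and hands the electrons to ubiquinone. Complex III moves them from ubiquinol to cytochrome c, which carries them to complex IV, and the proton gradient built on the way drives the rotary ATP synthase. Every subunit of complex II is encoded in the nucleus, whereas complex III takes cytochrome b and complex V takes ATP6 and ATP8 from mitochondrial DNA. The messenger RNAs of the nuclear genes are translated outside the mitochondrial matrix, in part on ribosomes close to the outer membrane, and the proteins are imported. Oxidative muscle fibres are rich in these transcripts.

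To show what the genes share in sequence, the windows around their RefSeq start sites (assembly GRCm38.p6, 250 bases before to 50 after the start) were searched on both strands for the letters of 4 motifs linked to respiratory genes. A window was given for 27 of the 35 genes, in 30 windows, and 16 of the 27 held at least 1 of the motifs, against 14.0% of the 27025 genes with a window. The NRF-1 core GCATGCGC stood in windows of 7 genes (Sdhb, Uqcrc1, Uqcr11, Cycs, Atp5g2, Atp5k and Atp5l; 3.05% of all genes). The ETS core CCGGAAG, bound by GABP, stood in windows of 11 (Sdhb, Sdhd, Uqcrh, Uqcr11, Cox6b1, Atp5e, Atp5h, Atp5j, Atp5k, Atp5l and Atp5md; 9.93% of all genes). The ERR element TCAAGGTCA was found in Sdhd and Atp5g3 (0.466% of all genes) and the YY1 element AAGATGGCG in Atp5j and Atp5j2 (1.64% of all genes). In Atp5k, Uqcrc1 and Atp5g2 the NRF-1 letters on both strands overlapped each other, and different motifs did not overlap. Below are the 120 bases before the start of 6 genes, which show each motif on the strand of the gene or reversed, with its letters in capitals. Sdhb (chr4:140961151-140961270, plus strand) and Cycs (chr6:50566570-50566689, minus) carry the NRF-1 core, 54 and 60 bases before the start. Sdhd (chr9:50603850-50603969, minus) and Uqcr11 (chr10:80406822-80406941, minus) carry the ETS core. Atp5g3 (chr2:73911327-73911446, minus) carries the ERR element. Atp5j (chr16:84834977-84835096, minus, 1 of its 2 windows) carries YY1 and ETS letters, and Gabpa, which encodes a GABP subunit, overlaps it on the opposite strand. A match describes the letters and does not show that a factor binds.
Sdhb: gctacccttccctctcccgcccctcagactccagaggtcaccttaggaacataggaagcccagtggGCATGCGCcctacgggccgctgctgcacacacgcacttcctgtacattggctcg
Cycs: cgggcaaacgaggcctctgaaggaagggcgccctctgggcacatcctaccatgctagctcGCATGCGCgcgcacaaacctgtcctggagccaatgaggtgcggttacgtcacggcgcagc
Sdhd: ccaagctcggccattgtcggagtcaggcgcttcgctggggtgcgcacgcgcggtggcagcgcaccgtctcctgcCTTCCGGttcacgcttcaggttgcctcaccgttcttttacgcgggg
Uqcr11: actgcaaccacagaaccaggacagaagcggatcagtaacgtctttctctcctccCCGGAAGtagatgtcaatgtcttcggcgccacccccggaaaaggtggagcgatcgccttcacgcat
Atp5g3: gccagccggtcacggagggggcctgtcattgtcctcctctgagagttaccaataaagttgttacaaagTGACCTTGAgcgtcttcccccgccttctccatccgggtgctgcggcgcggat
Atp5j: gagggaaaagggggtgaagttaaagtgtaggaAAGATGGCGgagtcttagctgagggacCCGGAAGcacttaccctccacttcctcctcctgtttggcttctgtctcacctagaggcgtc

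Values are the deposited normalized counts, that is, reads per gene divided by a size factor of each library and rounded. The libraries of isolated mitochondria held 42749263 and 35306106 assigned reads, and 15702491 and 15300357 reads were estimated for remaining tissue. Because most reads of isolated mitochondria came from mitochondrial DNA, the 35 genes together held 875 and 1517 reads there, and an estimated 87471 and 81776 in remaining tissue. A single gene had 2 to 258 reads per library of isolated mitochondria, and counting error was therefore large in that group. Across the 35 genes replicates correlated with a Pearson coefficient of 0.996 on the log2 scale in remaining tissue and 0.926 in isolated mitochondria (genes are not independent replicates).

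The tissue label was checked with markers. Myofibre markers summed to 262880 to 273291 normalized counts in remaining tissue and 50358 to 52602 in isolated mitochondria, and 8 of 10 were lower there, Myh4 by 3.34 and Myh1 by 2.48 on the log2 scale. Fibroblast markers summed to 1544 to 1645 in remaining tissue and 9954 to 18364 in isolated mitochondria, and all 5 of them were higher there (log2 2.13 to 3.42). The 5 macrophage markers summed to 89 to 109 against 524 to 637, with 3 of 3 tested higher (log2 2.38 to 2.88). Endothelial markers summed to 448 to 450 against 99 to 110, with 1 of 5 lower (Cdh5, log2 -2.59). No adipocyte, Schwann cell or erythroid marker passed the test, but only 2, 1 and 2 of them had values high enough to be tested. The neuronal gene Rbfox3 had 471 and 648 normalized counts in isolated mitochondria and 0 in either library of remaining tissue. The other neuronal markers of the list were absent from the table, so this rests on 1 gene. These directions hold for the deposited scaling, and scaled to all genes the fibroblast and macrophage markers were lower as well. What these shifts contribute to the values below was not tested. In bulk RNA, fewer cells of a type and less RNA per cell cannot be told apart.

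The plot of normalized counts by library shows the values on which all comparisons rest. Groups did not overlap for 28 of the 35 genes, with 24 lower and 4 higher in isolated mitochondria. Among all 6916 genes tested, whose values averaged 20 or more, 43.7% were lower and 25.5% were higher without overlap. All 35 genes passed that limit.

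**Figure D1:**
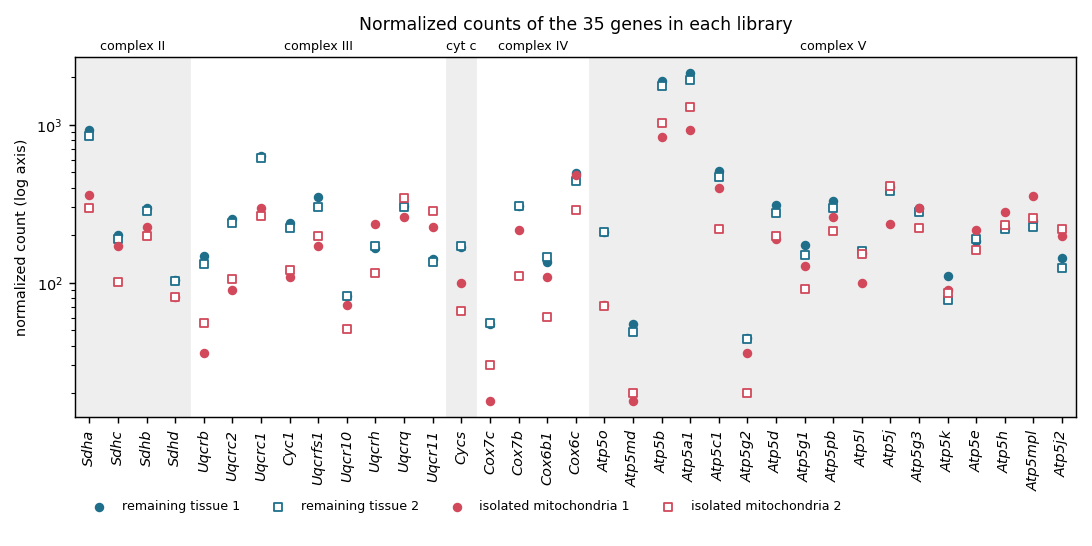
Normalized count (log axis) of each of the 35 genes in the 4 libraries, grouped by complex and ordered within it by the difference between fractions. Libraries of remaining tissue lie close together, those of isolated mitochondria are further apart, and Atp5a1 and Atp5b stand highest in every library.

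Differences between fractions were tested with limma on the log2(normalized count + 1) scale, two-sided and with Benjamini-Hochberg adjustment over all genes tested. Its errors come from the spread between libraries and are not weighted by reads, so they can understate counting error where reads are few. At an adjusted p under 0.05, 7 of the 35 genes were lower in isolated mitochondria and 0 were higher, and 15 had an unadjusted p under 0.05. Among all genes tested 9.30% were lower and 7.32% were higher at the adjusted threshold, and the unadjusted one was not counted over all genes. The median difference of the 35 genes was -0.58, and that of all genes tested was -0.44. The 7 genes that passed were Sdha, Uqcrb, Uqcrc1, Uqcrc2, Cyc1, Atp5b and Atp5o. In isolated mitochondria Uqcrb rested on 4 and 11 reads, Atp5o on 8 and 14, Uqcrc2 on 10 and 21 and Cyc1 on 12 and 24. The calls did not hold when either library of remaining tissue was left out. With 1 of the 4 libraries left out, the median of the 35 genes ranged from -0.70 to -0.36, and that of all genes from -0.44 to -0.28. edgeR called 8 genes lower and 1 higher, against 1215 and 939 of all 6916 genes tested. DESeq2 called 7 lower and 2 higher, against 877 and 1404.

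The direction depended on what the libraries were scaled to. Scaled to the total of all genes, all 35 genes were lower, with a median of -7.34 (all genes -6.90, 96.8% of them lower). Scaled to the nuclear reads outside copies of mitochondrial DNA, 0 were lower and 4 were higher (Uqcr11, Atp5h, Atp5mpl and Atp5j2), with a median of 0.31 (all genes 0.43, 16.0% higher and 2.65% lower). Of all calls, 44.0% were higher with the deposited scaling, 0.564% with the total of all genes, 85.8% with nuclear genes, 55.9% with edgeR and TMM, and 61.6% with DESeq2. In each of these fits the median of the 35 genes lay below that of all genes. Without replicate 1 of isolated mitochondria it was -0.70, against -0.28 for all genes, and without replicate 2 it was -0.36, against -0.43, so that the order turned. With no filter on low values it was -0.58 against -0.68. Relative to the median of all genes tested, the 7 genes lay between -1.17 (Uqcrb) and -0.53 (Atp5b) with the deposited scaling and between -1.16 and -0.51 (the same 2 genes) with nuclear scaling. Uqcr11 lay at 1.31 and 1.32 above it. A change of scale shifts all genes of a library alike, apart from the 1 added to each count. These distances were therefore nearly equal under both scalings by construction, which is no further evidence. The order of the median of the 35 genes and that of all genes was likewise close to fixed across the limma scalings.

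**Figure D2:**
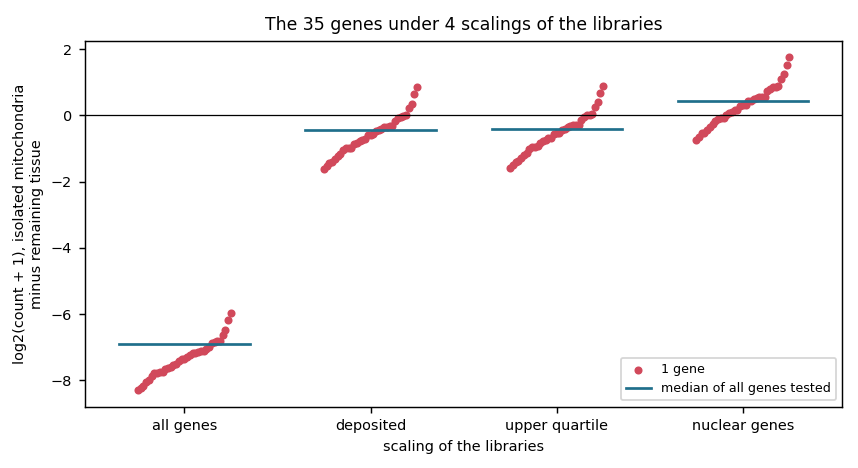
Difference between fractions on the log2(count + 1) scale for the 35 genes (points, in order of value) when libraries are scaled to all genes, as deposited, to the upper quartile or to nuclear genes. Horizontal bars are the medians of all genes tested; the points lie on both sides of the bar under each scaling, while bar and points move from below 0 to around or above it.

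All 4 complex II genes had values below remaining tissue without overlap with the deposited scaling, as did 43.7% of all genes tested. Sdha alone passed the test, as lower, where 9.30% of all genes tested did. Sdha, the flavoprotein that oxidises succinate (gene at chr13:74322254-74350280 of build mm10, as all positions below), had 931 and 851 normalized counts in remaining tissue and 362 and 298 in isolated mitochondria. Both libraries of isolated mitochondria lay far below both of remaining tissue, a 2.70-fold lower level (log2 -1.44 ± 0.19, SE; adjusted p = 0.0230, limma). Relative to the median of all genes the difference was -0.99, and with nuclear scaling the log2 value was -0.54 (adjusted p = 0.133). Sdhb, the iron-sulfur protein, differed by -0.47, and the membrane anchors Sdhc and Sdhd by -0.57 and -0.34. Relative to the median of all genes, Sdhb, Sdhc and Sdhd lay at -0.03, -0.13 and 0.10. Sdhd, the least changed of the complex, had 104 and 102 against 81 and 81 normalized counts (adjusted p = 0.309, limma). The 2 equal values rest on 9 and 16 reads, so their lack of spread does not measure the counting error. The 95% interval of the Sdhd difference reached from -0.93 to 0.25.

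Complex III held 4 of the 7 genes that passed, out of its 9 genes, and 9.30% of all genes tested were lower. The core proteins Uqcrc1 and Uqcrc2 form the matrix arm of the complex. Uqcrc1 (chr9:108936633-108949623) had 634 and 621 normalized counts in remaining tissue and 299 and 263 in isolated mitochondria (log2 -1.16 ± 0.18, SE; adjusted p = 0.0283, limma). Uqcrc2 (chr7:120635176-120659524) had 253 and 238 against 90 and 106 (log2 -1.32 ± 0.21, SE; adjusted p = 0.0304, limma). For both genes the libraries of isolated mitochondria were at less than 50% of the lower tissue library. Part of Uqcrc2, 23.8% of its read-length windows, also lies on the opposite strand of Pdzd9, and the strand setting of the counting was not given in the sources used here.

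Cyc1, the heme-bearing cytochrome c1 (chr15:76343523-76346260), had 238 and 221 normalized counts in remaining tissue and 109 and 121 in isolated mitochondria (log2 -0.99 ± 0.20, SE; adjusted p = 0.0464, limma). The groups were apart by more than their spread, and this was the call closest to the threshold. Cyc1 missed the threshold with DESeq2 (adjusted p = 0.0503) and with edgeR and TMM (adjusted p = 0.0637). With nuclear scaling its log2 value was -0.10 (adjusted p = 0.751, limma). The Rieske protein Uqcrfs1, the other catalytic subunit encoded in the nucleus, differed by -0.82 (adjusted p = 0.0670, limma). Uqcrb, a small subunit near the ubiquinone site (chr13:66900617-66905378), had 147 and 132 against 36 and 56, which rest on 4 and 11 reads (log2 -1.61 ± 0.32, SE; adjusted p = 0.0436, limma). It was the lowest of all 35 genes, and 29.1% of its read-length windows occur in 3 processed pseudogenes.

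The other supernumerary subunits of complex III did not pass the test, and their values lay above that of Uqcrb. Uqcr10 differed by -0.44, while Uqcrh and Uqcrq differed by -0.03 each with overlapping groups. Uqcrq had 308 and 304 normalized counts in remaining tissue and 262 and 344 in isolated mitochondria. Uqcr11, the smallest subunit of the complex in this table at 56 residues, was the highest of the 35 genes, with 141 and 136 in remaining tissue and 226 and 283 in isolated mitochondria (log2 0.86 ± 0.22, SE; adjusted p = 0.0700, limma). Both libraries of isolated mitochondria exceeded both of remaining tissue, and the gene was called higher with nuclear scaling (1.75, adjusted p = 0.0176, limma) and by edgeR (adjusted p = 0.0326). Scaled to all genes it was lower, by -5.97, as all genes here were. The 4 core and catalytic genes had a median of -1.08 (-1.32 to -0.82). The 5 supernumerary genes had a median of -0.03 but ran from -1.61 (Uqcrb) to 0.86 (Uqcr11), the lowest and the highest of the 35 genes.

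Cytochrome c and the 4 complex IV genes chosen here gave no call with limma over all 4 libraries. Cycs was called lower by edgeR with the deposited scaling (log2 -1.10, adjusted p = 0.0338). Its limma difference was -1.34 without replicate 1 of isolated mitochondria and -0.75 without replicate 2. Cycs, the soluble electron carrier, had 168 and 170 normalized counts in remaining tissue and 100 and 66 in isolated mitochondria, the latter from 11 and 13 reads (log2 -1.05 ± 0.29, SE; adjusted p = 0.0836, limma). Of these 4 supernumerary subunits of complex IV, Cox7c was lowest, with 55 and 56 against 18 and 30. These are 2 and 6 reads, and the 95% interval of the difference reached from -2.26 to -0.18. Cox6c was highest, with 494 and 443 in remaining tissue and 480 and 288 in isolated mitochondria, so that the groups overlapped. Cox7b and Cox6b1 differed by -0.98 and -0.78 without overlap and without passing the test.

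In complex V, 2 of 17 genes passed the test, the catalytic beta subunit Atp5b and the stalk subunit Atp5o, both lower with the deposited scaling. Of all genes tested, 9.30% were lower. The F1 head turns rotation into ATP, and its alpha and beta subunits form the hexamer that holds the catalytic sites. Atp5b, the beta subunit (chr10:128083273-128090391), had 1883 and 1773 normalized counts in remaining tissue and 842 and 1027 in isolated mitochondria (log2 -0.97 ± 0.18, SE; adjusted p = 0.0422, limma). Atp5a1, the alpha subunit, had 2118 and 1912 against 932 and 1305 (log2 -0.87 ± 0.23, SE; adjusted p = 0.0796, limma). Groups were apart for both genes, the beta subunit passed with limma, and the alpha subunit passed with DESeq2 (adjusted p = 0.0368). With nuclear scaling the log2 values were -0.08 for Atp5b (adjusted p = 0.79, limma) and 0.03 for Atp5a1 (adjusted p = 0.94, limma). Atp5c1 (gamma) differed by -0.73 and Atp5d (delta) by -0.60, while Atp5e (epsilon) differed by 0.00 with overlapping groups.

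The peripheral stalk holds the head still against the turning rotor. Its OSCP subunit Atp5o (chr16:91925214-91931687) had 209 and 209 normalized counts in remaining tissue and 72 and 71 in isolated mitochondria (log2 -1.53 ± 0.20, SE; adjusted p = 0.0225, limma), the smallest adjusted p of the 35 genes. The groups were far apart, although the values in isolated mitochondria rest on 8 and 14 reads. The SE, taken from the spread between libraries, can understate the error of so few reads. A second annotated Atp5o gene overlaps it, and 27.1% of its windows occur in that gene or in the pseudogene Gm5436. The antisense gene D430001F17Rik covers 12.04% of its windows, so the count of Atp5o is uncertain. Atp5pb (b), Atp5j (F6) and Atp5h (d) differed by -0.40, -0.33 and 0.21. Atp5h was higher without overlap, was called with nuclear scaling (1.11, adjusted p = 0.0351, limma), was lower when scaled to all genes, and shares 40.3% of its windows with 1 pseudogene.

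The membrane part holds the rotor ring of subunit c and small subunits around it. Atp5j2, subunit f, was the highest of complex V, with 143 and 124 normalized counts in remaining tissue and 199 and 218 in isolated mitochondria (log2 0.64 ± 0.21, SE; adjusted p = 0.109, limma). Atp5mpl, a small associated protein, had 245 and 227 against 353 and 258 (log2 0.35 ± 0.24, SE; adjusted p = 0.337, limma). Both were higher without overlap with the deposited scaling, lower when scaled to all genes, and called higher with nuclear scaling. Atp5k and Atp5l, subunits e and g, differed by -0.08 and -0.35. Atp5md, another small associated protein, differed by -1.41 on 2 and 4 reads, with an adjusted p of 0.0578 (limma) and a 95% interval from -2.28 to -0.53.

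**Figure D3:**
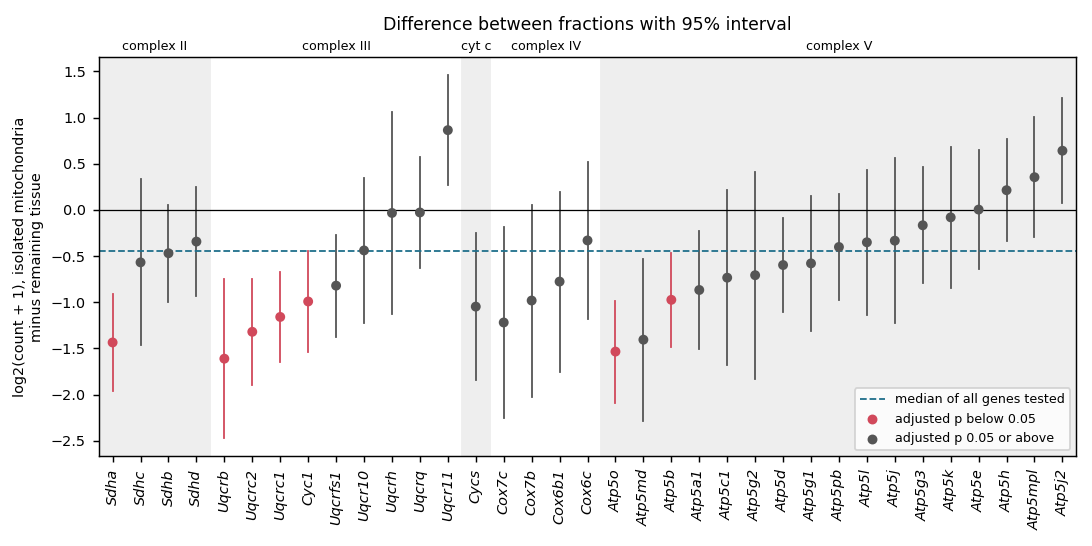
Difference between fractions on the log2(count + 1) scale for each gene, with its 95% interval from limma, grouped by complex. With the deposited scaling, genes in red had an adjusted p below 0.05, all of them below 0, and the dashed line is the median of all genes tested (-0.44).

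Subunit c of the rotor ring is made from 3 genes that differ in their presequence and encode the same mature protein. Atp5g1 had 173 and 150 normalized counts in remaining tissue and 127 and 91 in isolated mitochondria. Atp5g2 had 45 and 44 against 36 and 20, and Atp5g3 had 299 and 281 against 299 and 223. Only Atp5g3 overlapped between groups, and none of the genes passed the test (log2 -0.58, -0.71 and -0.17). Atp5g3 gave 57.8% and 59.2% of the reads of these genes in remaining tissue. In isolated mitochondria it gave 64.7% and 66.7%, with 95% Wilson intervals of 51.0% to 76.4% and 54.7% to 76.8% that include the tissue shares. The mix of subunit c genes was thus not detectably different at this depth. Every read-length window of the Atp5g2 transcript, and 59.6% of that of Atp5g1, occurs in other genes, so both counts are uncertain.

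Levels between genes were compared per kilobase of the principal transcript, in normalized counts per kilobase. In remaining tissue Atp5b was highest (983 and 925), followed by Cox6c (982 and 881), Atp5a1 (857 and 774), Uqcrq (760 and 751) and Atp5mpl (669 and 620). Atp5b and Cox6c did not differ beyond their spread, whereas Atp5a1, Uqcrq and Atp5mpl each lay below both libraries of the gene before them in this order. In isolated mitochondria Atp5mpl ranked first (964 and 705) and Atp5b ranked 5 (439 and 536), with wide spread between replicates. With the length of the longest transcript in place of the principal one, Cox6c ranked 22 and Uqcrq 19 in remaining tissue, while Atp5b and Atp5a1 ranked 1 and 2.

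Shares of reads within a library do not depend on the scaling. The 35 genes took 0.557% and 0.534% of all assigned reads in remaining tissue and 0.00205% and 0.00430% in isolated mitochondria. The mean share was 172-fold lower in isolated mitochondria. Of nuclear reads outside copies of mitochondrial DNA, they took 0.730% and 0.683% in remaining tissue and 0.867% and 0.837% in isolated mitochondria. The latter shares had 95% Wilson intervals of 0.812% to 0.926% and 0.796% to 0.880%, above both tissue libraries, and their mean was 1.21-fold that of remaining tissue. For shares and ratios no test was made, since the smallest two-sided p of an exact permutation test between groups of 2 is 0.333, and intervals cover counting error only. On the same nuclear total, complex I subunits stood at 1.38-fold, other complex IV subunits at 1.17-fold, myofibre markers at 0.357-fold and cytosolic ribosomal proteins at 3.24-fold of remaining tissue.

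Within the reads of the 35 genes, complex V took 59.6% and 59.0% in remaining tissue and 58.7% and 63.9% in isolated mitochondria. The 95% Wilson interval of the second library of isolated mitochondria (61.4% to 66.3%) lay above both tissue values, and that of the first (55.5% to 62.0%) included them. Complex III took 18.7% and 19.1% against 19.0% and 20.04%. The 4 complex IV genes took 8.003% and 8.20% against 10.4% and 6.39%, so that the 2 libraries of isolated mitochondria (intervals of 8.55% to 12.6% and 5.27% to 7.74%) lay on opposite sides of remaining tissue. Cytochrome c took 1.35% and 1.46% against 1.26% and 0.857%. Complex II took 12.4% and 12.3% in remaining tissue and 10.6% and 8.83% in isolated mitochondria, where the 95% Wilson interval of the second library (7.51% to 10.4%) lay below both tissue values and that of the first (8.76% to 12.8%) included them. By role, shares inside the complexes differed more. Within complex III, the 4 core and catalytic genes gave 63.6% and 62.6% of reads in remaining tissue and 44.6% and 44.7% in isolated mitochondria. Within complex V, the F1 genes gave 67.7% and 67.6% against 55.4% and 59.3%, and the membrane genes 16.6% and 16.3% against 26.3% and 21.8%.

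Ratios of 2 genes in a library, for pairs chosen after their values were seen, are also free of the scaling. Sdha stood to Sdhb at 3.11 and 2.98 in remaining tissue and at 1.602 and 1.51 in isolated mitochondria. Uqcr11 stood to Uqcrc1 at 0.222 and 0.219 against 0.756 and 1.08, and Atp5j2 to Atp5b at 0.0759 and 0.0699 against 0.236 and 0.212. In none of these pairs did the groups overlap, and the 95% counting intervals of both libraries of isolated mitochondria excluded the tissue ratios. Some partners of like size overlapped and others did not. Atp5a1 stood to Atp5b at 1.12 and 1.08 against 1.11 and 1.27, and Uqcrc1 to Uqcrc2 at 2.51 and 2.61 against 3.32 and 2.48, with overlapping groups in both cases. Atp5o stood to Atp5h at 0.946 and 0.950 against 0.256 and 0.305, where both counting intervals of isolated mitochondria excluded the tissue ratios. Cyc1 stood to Uqcrfs1 at 0.682 and 0.727 against 0.634 and 0.614, without overlap but with intervals that included the tissue ratios.

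**Figure D4:**
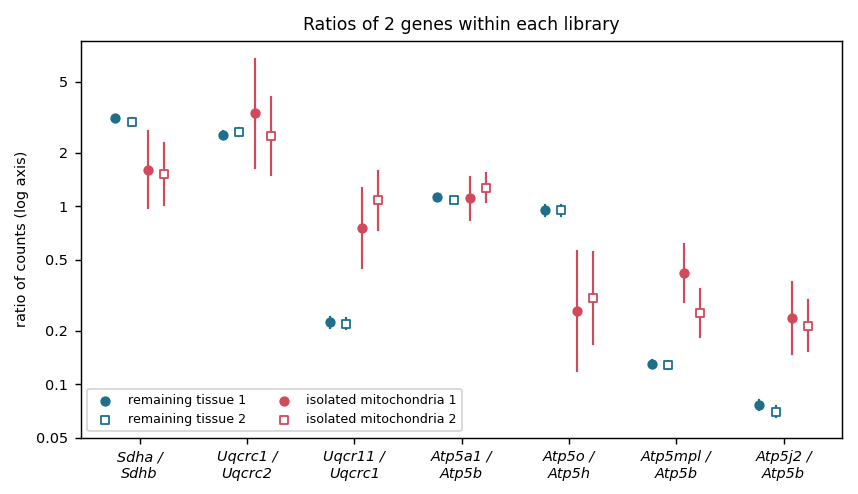
Ratio of normalized counts of 2 genes within each library (log axis), with 95% intervals for counting error. Sdha to Sdhb and Atp5o to Atp5h are lower in isolated mitochondria, Uqcr11 to Uqcrc1, Atp5mpl to Atp5b and Atp5j2 to Atp5b are higher, and Uqcrc1 to Uqcrc2 and Atp5a1 to Atp5b overlap between groups.

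The difference between fractions was set beside the coding length of each gene, a measure the choice of genes did not use. The 18 genes with a coding length of up to 408 bases had a median difference of -0.34, and the 17 longer ones -0.73. Among all nuclear protein-coding genes tested the corresponding medians were 0.05 for 315 short genes and -0.49 for 6107 long ones. Over the 35 genes the Spearman coefficient between difference and coding length was -0.46, and it was -0.46 and -0.36 when each library of isolated mitochondria was set against the tissue mean. Over the 20 genes with no read-length window in another gene it was -0.79. The same coefficient was 0.17 over 35 complex I subunits, -0.30 over 77 cytosolic ribosomal protein genes and -0.15 over all nuclear protein-coding genes. These coefficients describe genes that share libraries and are given without a test. Cox7c, Atp5md and Uqcrb were short and low.

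**Figure D5:**
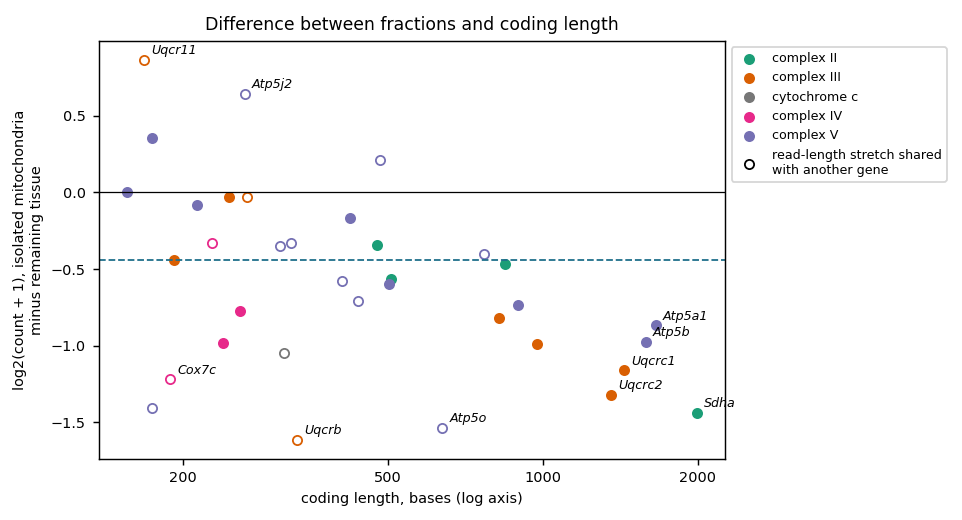
Difference between fractions on the log2(count + 1) scale against coding length in bases (log axis) for the 35 genes, coloured by complex. Open points share a 75-base stretch with another gene; the dashed line is the median of all genes tested (-0.44), and the longest genes Sdha, Atp5a1, Atp5b, Uqcrc1 and Uqcrc2 lie below it.

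Reads that match several places were left out by the authors, so copies of a gene lower its count. Of the 35 genes, 15 shared at least 1 window of 75 bases with another annotated gene, from 1.02% of windows in Atp5j2 to all of them in Atp5g2. Among those sharing most, Atp5l (63.4%), Atp5g1 (59.6%), Cox7c (50.4%), Atp5h (40.3%), Atp5md (34.7%) and Uqcrb (29.1%), differences ran from -1.61 to 0.21. The median difference of the 15 genes was -0.40 with 2 called lower, against -0.67 and 5 called lower for the 20 genes with no such window. The reads lost in this way were not counted. The table also held 10 processed pseudogenes named after these genes, of which Cox6c2 was highest, at 175 and 148 normalized counts in remaining tissue and 136 and 157 in isolated mitochondria.

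The mitochondrially encoded partners were set beside their nuclear-encoded subunits. Cytochrome b (mt-Cytb) had 12037 and 11634 normalized counts in remaining tissue and 6358180 and 3815298 in isolated mitochondria. mt-Atp6 had 8573 and 7182 against 4683857 and 2704346, and mt-Atp8 605 and 676 against 623841 and 230615. All 6 partners tested were higher in isolated mitochondria (log2 8.70 to 9.21). Free of scaling, mt-Atp6 stood to Atp5b at 4.55 and 4.05 in remaining tissue and at 5563 and 2633 in isolated mitochondria, and mt-Cytb to Cyc1 at 50.6 and 52.6 against 58332 and 31531.

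Other genes of the pathway were read from fixed lists. Among all 6916 genes tested, 9.30% were lower, 7.32% were higher and 4364 had a difference below 0. Of 11 assembly factors tested 0 passed in either direction, with a median of -0.72. Among other complex IV subunits, 1 of 10 was lower, the muscle isoform Cox6a2 (-1.55), and the median was -0.54. Complex I subunits had 2 of 35 lower, Ndufb4 (-1.19) and Ndufs1 (-0.95), with a median of -0.45. Regulators of respiratory genes gave 0 calls among 9 tested, with a median of -1.35 and 8 of 9 below 0. These regulators rest on 0 (Pprc1) to 19 (Gabpa) reads per library of isolated mitochondria, so their median is uncertain. Of 7 RNA-binding proteins that act on such messenger RNAs or at the outer membrane, Fxr1 (-1.67) and Cluh (-1.22) were lower. Cytosolic ribosomal proteins went the other way, with 12 of 77 higher, among them Rpl21 (2.05), Rpl3 (1.85), Rps28 (1.66) and Rps9 (1.61), and the muscle paralog Rpl3l lower (-1.33). With the total of all genes as the scale, these ribosomal genes were lower as well.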

How the data were processed

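The authors trimmed reads, aligned them to mm10 and counted them per gene. The submitters' processing notes name Trimmomatic 0.39, STAR 2.7.10a, featureCounts 2.0.2 and DESeq2 1.30.1, while the study's methods give other versions for the last 3. The deposited values are a signal, gene counts divided by a DESeq2 size factor and rounded. Low values (under 2000) in isolated mitochondria were whole multiples of 9.05 (99.95% of 10508 values) and 5.06 (99.97% of 11660), within 0.5 normalized counts, which gave whole reads. Remaining tissue reads were estimated at 7.05 per normalized count.

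Genes with a mean of at least 20 were tested with limma 3.58.1 in R 4.3.3 (pseudocount 1, trend, no covariates, 2 libraries a group). Alternatives included edgeR 4.0.16 and DESeq2 1.42.0. Both ran on whole reads, recovered for isolated mitochondria but only estimated for remaining tissue, so their p-values depend on that estimate. Scripts were tested on simulated data. The 35 genes, lists, roles and length split were chosen with earlier results of these data known. Every gene is named, with values by library for those past the threshold, the extremes of each complex, the 5 highest per kilobase and the subunit c genes. Annotation was GENCODE M21, in which all 35 had the same coordinates.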

Additional observations from a re-analysis of the deposited data

How the results depend on the processing

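The number of the 35 genes called lower (7 as reported) was 4 with a mean of at least 5, 35 scaled to all genes, 0 scaled to nuclear genes, 1 with eBayes without trend, and 0 to 20 when 1 library was left out, with 0 for either library of remaining tissue. The number called higher (0 as reported) was 4 scaled to nuclear genes, 1 scaled to the upper quartile, 1 with edgeR, 2 with edgeR and TMM, 2 with DESeq2, and 0 to 4 without 1 library. The cause of these changes was not tested. With 1 library left in an arm, it is assumed to vary like the others.

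Over all genes, higher calls (506 as reported) numbered 283 with a mean of at least 5, 38 scaled to all genes, 1107 scaled to nuclear genes, 939 with edgeR on whole reads, 1106 with TMM, 1404 with DESeq2 and 296 to 1724 without 1 library. Lower calls (643 as reported) numbered 399, 6694, 183 and 1215 in the first 4 of these settings, 3026 without the filter, 374 without trend, 1144 with the replicate block and 176 to 3198 without 1 library. Deviations from the group mean correlated at 0.141 over 6916 genes between the libraries numbered 1 of each group. With 2 libraries a group, those numbered 2 repeat this value by construction. Same-numbered libraries share only a number. With the replicate block 7 of the 35 genes were lower and 0 higher, with Cyc1 lost (adjusted p = 0.0711, limma) and Atp5a1 gained (adjusted p = 0.0431, limma).

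The median of the 35 genes was -7.34 scaled to all genes, 0.31 scaled to nuclear genes and -0.31 with DESeq2. By complex, the medians scaled to all genes and to nuclear genes were -7.33 and 0.37 for II, -7.63 and 0.072 for III, -7.77 and -0.16 for cytochrome c, -7.52 and 0.010 for IV, and -7.18 and 0.49 for V. Without 1 library the median of complex IV was -1.03 to -0.43.

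Scaled to nuclear genes, the sign turned for Atp5a1 (0.028), Atp5c1 (0.16), Atp5d (0.29), Atp5g1 (0.31), Atp5g2 (0.16), Atp5g3 (0.73), Atp5j (0.56), Atp5k (0.81), Atp5l (0.54), Atp5pb (0.49), Cox6b1 (0.11), Cox6c (0.56), Sdhb (0.42), Sdhc (0.32), Sdhd (0.54), Uqcr10 (0.44), Uqcrfs1 (0.072), Uqcrh (0.86) and Uqcrq (0.86). Scaled to all genes, it turned for Atp5e (-6.81), Atp5h (-6.62), Atp5j2 (-6.18), Atp5mpl (-6.49) and Uqcr11 (-5.97), and scaled to the upper quartile for Uqcrh (0.0067) and Uqcrq (0.012). It turned for Atp5e (-0.011) and Uqcrq (0.0042) with edgeR, for Atp5g3 (0.072), Atp5k (0.13), Uqcrh (0.23) and Uqcrq (0.24) with TMM, and for Atp5g3 (0.11), Atp5j (0.043), Atp5k (0.18), Atp5l (0.022), Cox6c (0.00071), Uqcrh (0.33) and Uqcrq (0.31) with DESeq2. Without 1 library, values ranged from -0.21 to 0.21 for Atp5e, -0.38 to 0.045 for Atp5g3, -0.73 to 0.067 for Atp5j, -0.33 to 0.17 for Atp5k, -0.70 to 0.037 for Cox6c, -0.54 to 0.47 for Uqcrh and -0.22 to 0.17 for Uqcrq. None of the 7 genes called lower changed sign under any of the 15 alternatives. They were picked as lower in the same libraries, so a stable sign is no independent check. With nuclear scaling their values ran from -0.73 (Uqcrb) to -0.079 (Atp5b) and none passed the test. Cyc1 lay at -0.10 and Uqcrc1 at -0.27.

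The share of reads on the 35 genes was 0.706% in remaining tissue and 0.852% in isolated mitochondria when taken of nuclear reads. Per kilobase, the composition was 6.14% and 4.56% for complex II, 23.6% and 25.8% for III, 0.469% and 0.294% for cytochrome c, 13.6% and 12.3% for IV, and 56.2% and 57.0% for V in remaining tissue and isolated mitochondria. Counts of 2 to 258 reads per gene in isolated mitochondria limit the precision of each difference. The length of the longest transcript was added as an alternative after seeing the data.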
